A study of Mus musculus with 12 samples.

Results

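The genes described here encode the 4 MEF2 transcription factors of the mouse (Mef2a, Mef2b, Mef2c and Mef2d) and the 4 class IIa histone deacetylases (Hdac4, Hdac5, Hdac7 and Hdac9). Open chromatin at these 8 genes was read from ATAC-seq peak lists of C2C12 cells, a mouse myoblast line that fuses into myotubes when serum is withdrawn. Transposase Tn5 inserts adapters into accessible DNA, so that a peak marks a stretch where insertions pile up. The series has 12 samples in 4 groups of 3, and the lists used here come from wild-type (WT) and Runx1KO (KO) cells, both kept in growth medium with 20% serum at day 0. KO cells are labelled as knockouts of Runx1, a RUNX family transcription factor. The edited allele and whether these cells are 1 clone are not given in the sources used here, and the day 2 samples in differentiation medium were not analysed here. A peak was assigned to a gene when its centre lay in the RefSeq gene body or up to 10 kb outside it, which gave 46 of the 34118 WT peaks and 39 of the 27187 KO peaks. Its class, shared or specific to a genotype, was taken from the deposited lists. All coordinates are of mm10 (GRCm38).

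MEF2 proteins carry a MADS box, bind A/T-rich sites in front of many muscle genes, and act there together with the MyoD family. Class IIa deacetylases bind MEF2 proteins and hold them in a repressed state. Phosphorylation by calcium/calmodulin-dependent kinases or protein kinase D creates docking sites for 14-3-3 proteins, which carry the deacetylases out of the nucleus and free MEF2. In skeletal muscle this switch is known for its part in differentiation and in the response to nerve activity.

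Peak names point to replicate 1 in either genotype. The fold and −log10 q values thus come from 1 library each as named, with no replicate error and no test between genotypes. Whether the other replicates were used to choose the retained peaks, and so the shared and specific classes, is not given in the sources used here. Each peak has a fold enrichment and a −log10 q, both the authors' own. They depend on sequencing depth, which is unknown, and are used to describe and rank peaks within 1 list. In cells measured in bulk, fewer cells with an open site and a smaller opening in each cell cannot be told apart. The number in a peak's name rises along the chromosome, and a skipped number stands for a call that is not in the deposited list. At Runx1 itself there were 19 WT and 12 KO peaks, which are no readout of the edit. Of 6 myoblast marker genes, 5 had a peak in both lists and Myf5 had none. Among markers of other lineages, Cdh5 and Pecam1 had peaks in both lists and Ptprc, Epcam and Alb had none.

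The open sites of the 8 genes were for the most part present in both genotypes. Of the 46 WT peaks, 37 were shared and 9 (19.6%, Wilson 95% interval 10.7 to 33.2) were WT specific, beside 27.3% of all WT peaks. Of the 39 KO peaks, 37 were shared and 2 (5.13%, interval 1.42 to 16.9) were KO specific, beside 9.59% of all KO peaks. These intervals treat peaks as independent and cover counting error only, and both hold the share of the whole list. Which side of the whole-list share the genes fell on depended on the threshold: among peaks in the upper part of the WT list (−log10 q from its median upward), 3 of 27 (11.1%) were WT specific, beside 6.17% of all such peaks. MEF2 genes had 2 WT specific peaks among 14 and 1 KO specific peak among 13. The deacetylase genes had 7 WT specific peaks among 32 and 1 KO specific peak among 26. A WT specific peak was found at 6 of the 8 genes, whereas 39.1% of the protein-coding genes with a WT peak had at least 1. A KO specific peak was found at Mef2b and Hdac7, that is at 2 of 8, beside 12.3% of the genes with a KO peak. A gene with more peaks has more chances to hold a specific one. Mef2d, Hdac4, Hdac5 and Hdac7 each had more WT peaks than at least 93.1% of the protein-coding genes of similar length (within 1.5 times, either way).

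**Figure D1:**
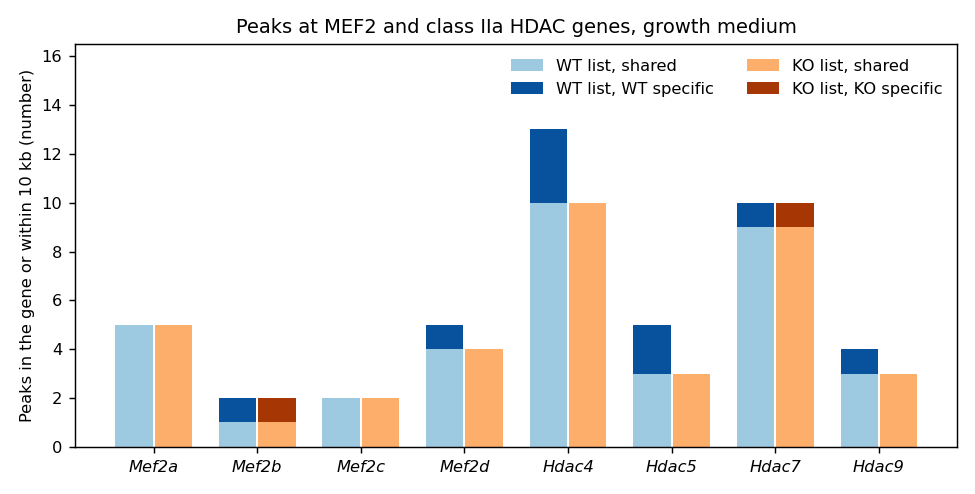
Number of deposited peaks (vertical axis) at each of the 8 genes (horizontal axis) in the WT list (blue) and the KO list (orange). Specific peaks are in the dark shade. Peak names point to replicate 1 of each genotype, and whether other replicates were used to choose the peaks is not given. Hdac4 has the most WT peaks (13, of which 3 are WT specific), and KO specific peaks appear at Mef2b and Hdac7 only.

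Mef2a, one of the broadly expressed members of the family, had 5 WT and 5 KO peaks, and all of them were shared. Its gene spans chr7:67231163-67376456. The start was covered by a WT peak at chr7:67372810-67373784 (fold 12.5, −log10 q 26.5) and by a KO peak at chr7:67372825-67373643 (fold 9.12, −log10 q 16.8). Inside the gene, 1 site differed in extent: the WT peak at chr7:67283686-67283828 was 143 bp wide and its KO partner at chr7:67283479-67284020 was 542 bp wide, so that they shared 26.4% of their joint length. That is the lowest shared length of any single-partner pair at the 8 genes. The site was named after its values were seen. By −log10 q the highest WT peak lay upstream, at chr7:67384949-67385392 (28.2), and the highest KO peak downstream, at chr7:67222439-67222860 (23.1). That KO peak lay 8.51 kb outside Mef2a, at the starts of Lysmd4 and 1700112J16Rik.

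Mef2b had a specific peak in both lists. The gene is best known from germinal-centre B cells and spans 14.7 kb at chr8:70152761-70167488. Its start carried a WT specific peak at chr8:70152617-70152770 with a fold of 12.5 and a −log10 q of 24.8, at percentile 69.3 of the WT list. The nearest KO peak lay 13.3 kb from that start, and 1 KO call number was missing in the stretch. The KO list in turn held a KO specific peak near the end of the gene, at chr8:70166805-70166986, with a fold of 4.90 and a −log10 q of 5.34, at percentile 5.15 of its list. Between the WT neighbours of this site 1 call number was missing. The remaining peak, shared by both lists, lay at the neighbouring gene Tmem161a (WT fold 17.5 and −log10 q 48.6, KO fold 10.9 and −log10 q 25.4). The centre of the WT specific peak lies 0.068 kb outside the gene, and in or within 1 kb of the predicted gene Gm45929. Assignment to the nearest protein-coding gene left Mef2b with no WT peak.

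Mef2c, which rises as myoblasts differentiate, had no peak at any of its 3 RefSeq starts in either list. Its 2 WT peaks and 2 KO peaks were shared and lay deep in the gene. The first was at chr13:83603953-83604567 in WT (fold 9.82, −log10 q 14.6) and at chr13:83604001-83604590 in KO (fold 9.33, −log10 q 15.1). The second was at chr13:83651995-83652441 in WT (fold 6.65, −log10 q 7.25) and at chr13:83651978-83652441 in KO (fold 9.05, −log10 q 14.2). Their summits lay 1 bp and 8 bp apart. Both sites also lie in or within 1 kb of predicted genes, Gm52043 and Gm52044. The outermost start was 99.9 kb from the nearest WT peak and 99.97 kb from the nearest KO peak. In that stretch, which reaches far upstream of the gene, 3 WT and 8 KO call numbers were missing.

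Mef2d, the other broadly expressed member, had 5 WT and 4 KO peaks in and around a gene of 30.2 kb at chr3:88141941-88172091. The start was open in both lists, with a WT peak at chr3:88141976-88142617 (fold 8.17, −log10 q 29.3) and a KO peak at chr3:88142131-88142556 (fold 7.08, −log10 q 26.3). The WT specific peak lay upstream, 3.50 kb outside the gene, at chr3:88138370-88138517. It was 148 bp wide, with a fold of 7.16 and a −log10 q of 21.1, at percentile 62.6 of the WT list. In the KO list 1 call number was missing between the neighbours of this site. The highest −log10 q of the MEF2 genes belonged to the shared peak beyond the end of Mef2d, at the start of 1700113A16Rik (57.2 in WT and 49.0 in KO).

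**Figure D2:**
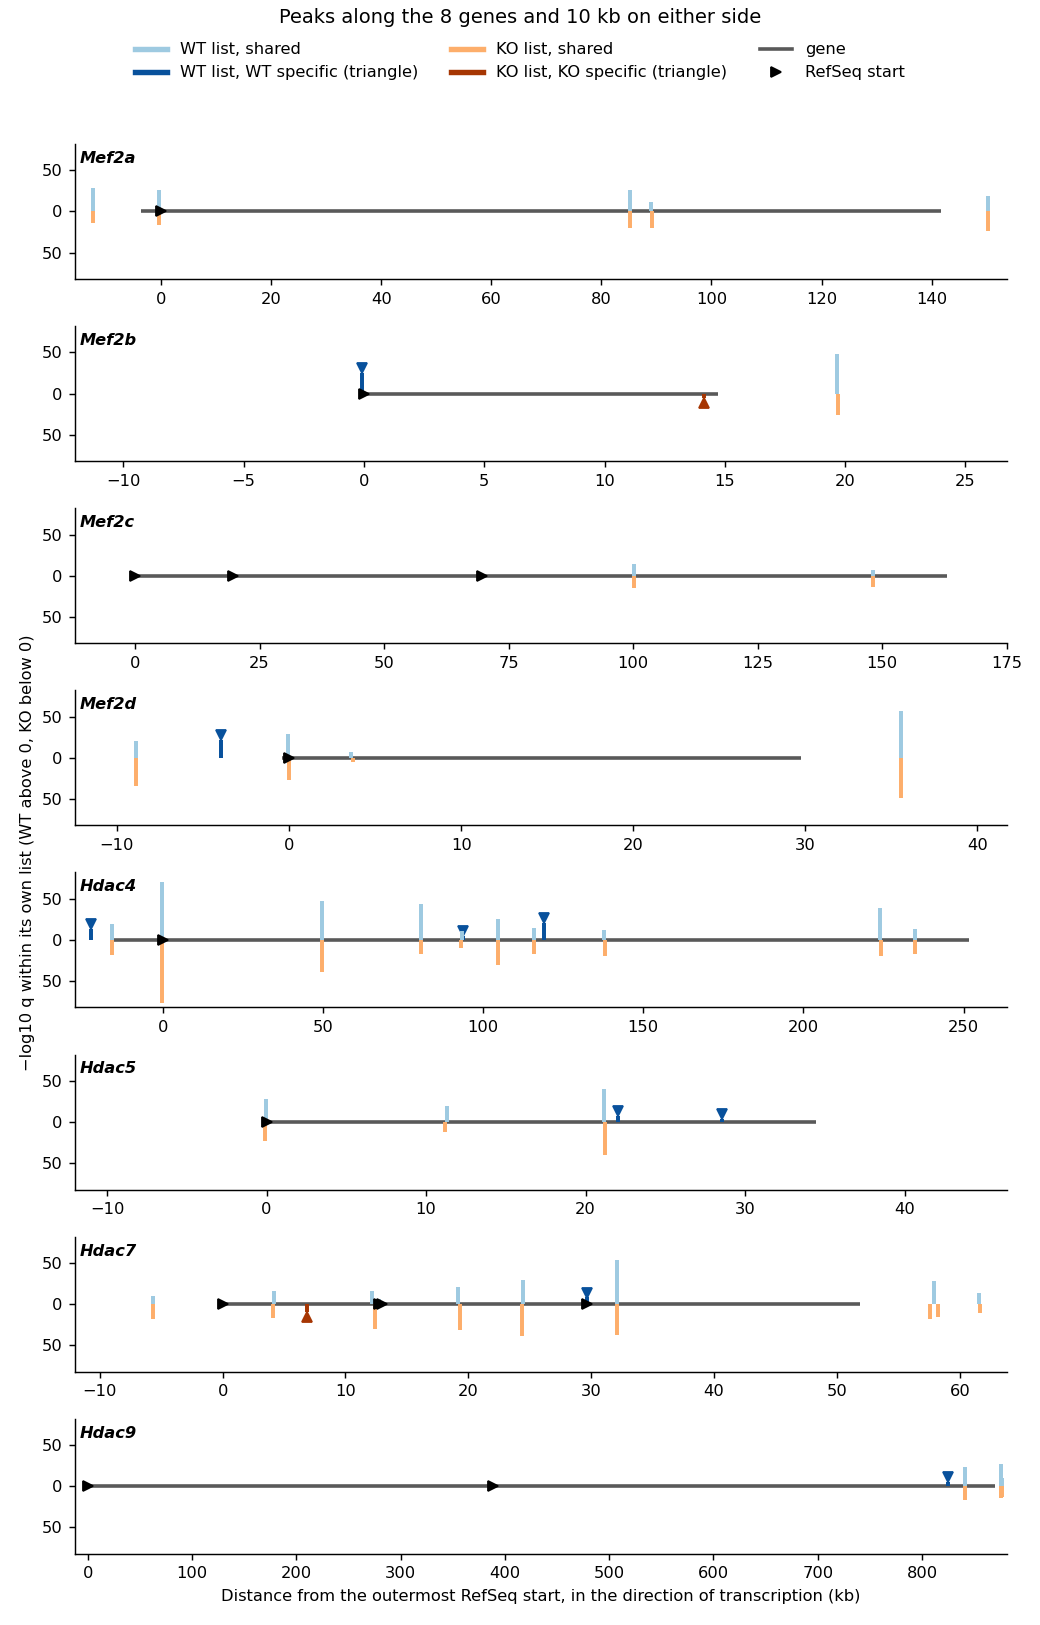
Position of each peak along the 8 genes (distance in kb from the outermost RefSeq start, in the direction of transcription) against its −log10 q, with the WT list drawn upward and the KO list downward; triangles mark specific peaks and arrowheads RefSeq starts. The starts of Mef2c and Hdac9 stand without a peak, and the start of Mef2b has a WT peak alone.

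Hdac4, a deacetylase well studied in denervated muscle, had the most peaks: 13 in WT and 10 in KO. Its gene spans 266.9 kb at chr1:91928779-92195702. Of the 796 protein-coding genes of similar length, 93.1% had fewer WT peaks, and their median was 3. The start peak had the highest −log10 q of all 8 genes in both lists, with a fold of 17.2 and a −log10 q of 70.8 at chr1:92180220-92181002 in WT and 17.4 and 76.4 at chr1:92180260-92181103 in KO. All 10 KO peaks were shared. The 3 WT specific peaks lay at chr1:92061314-92061551 (fold 9.65, −log10 q 20.4), chr1:92086243-92086684 (fold 4.88, −log10 q 5.06) and, upstream of the gene, chr1:92202627-92203057 (fold 8.73, −log10 q 13.3). From the centre of the second of these to the next KO peak, a shared one, there were 343 bp. The KO numbering skipped 1 number between the KO neighbours of each of the first 2 sites, and none between those of the upstream site.

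Some shared peaks at Hdac4, named after their values were seen, stood at different ranks in their own lists, in both directions. The WT peak at chr1:92099531-92100111 had a fold of 17.6 and stood at percentile 88.7 of the WT list, and its KO partner had a fold of 9.42 and stood at percentile 47.4 of the KO list. The WT peak at chr1:91956160-91956554 stood at percentile 85.6 (fold 14.1), and its partner at 54.1 (fold 9.23). The WT peak at chr1:92042268-92042697 stood at percentile 36.3 (fold 8.20), and its partner at 55.4 (fold 10.4). Ranks in lists of unequal length are given side by side here and show no change by themselves. At the start the percentiles were 97.4 and 98.8.

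Hdac5, known as a signal-responsive repressor in heart and muscle, had 5 WT and 3 KO peaks at chr11:102195747-102230172. The start was open in both lists, at chr11:102230061-102230335 in WT (fold 13.0, −log10 q 28.0) and chr11:102230080-102230512 in KO (fold 10.3, −log10 q 23.2). The 3 shared sites included the strongest peak of the gene, at chr11:102208882-102209136, with a −log10 q of 40.6 in WT and 40.5 in KO. The 2 WT specific peaks were weak. The peak at chr11:102207962-102208343 had a −log10 q of 7.73, at percentile 18.1 of the WT list, and that at chr11:102201492-102201734 had 3.86, at percentile 3.14. Between the KO neighbours of these sites 2 call numbers were missing. In both peaks the unlabelled last column of the specific list is filled; of the 9 WT specific peaks at the 8 genes these were the 2 so marked.

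Hdac7, known from endothelium and thymocytes, was the most densely marked gene, with 10 WT and 10 KO peaks at and around chr15:97792661-97844502. Of 3518 protein-coding genes of similar length, 99.9% had fewer WT peaks and the median was 1. Only 7 of the WT peaks and 6 of the KO peaks had their centre in the gene itself; the others lay in the flanks, partly at Slc48a1 and Gm33690. The WT specific peak lay at the innermost RefSeq start, at chr15:97814791-97814966, with a fold of 4.57 and a −log10 q of 8.11. No KO call number was missing around it. The KO specific peak lay at chr15:97837574-97837764, with a fold of 5.68 and a −log10 q of 10.1, and no WT call number was missing there. By −log10 q the highest WT peak of the gene was at chr15:97812120-97812633 (53.2) and the highest KO peak at chr15:97819978-97820323 (38.7), both shared.

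At a pair of neighbouring Hdac7 starts, chr15:97831495 and chr15:97831767, the lists drew different intervals over the same stretch. The WT list had a peak of 287 bp at chr15:97831604-97831890 (fold 4.69, −log10 q 6.23) and one of 348 bp at chr15:97832167-97832514 (fold 7.37, −log10 q 16.1). The KO list had a single peak of 1150 bp at chr15:97831494-97832643 (fold 9.54, −log10 q 30.1), at percentile 77.9 of its list. The WT peaks stood at percentiles 11.4 and 49.9 of theirs. Near Slc48a1 the reverse was seen, with 1 WT peak of 975 bp over 2 KO peaks of 322 bp and 239 bp.

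Hdac9, which also gives rise to a short form without the deacetylase domain, is the longest of the genes and had the fewest peaks for its length. It spans 869.5 kb at chr12:34047580-34917095 and had 4 WT and 3 KO peaks, or 0.450 and 0.337 per 100 kb with flanks, against 13.9 at Hdac7 in either list. All lay in the last stretch of the gene or beyond its end. A stretch of 824.9 kb, or 94.9% of the gene, held no WT peak, and 840.7 kb (96.7%) held no KO peak; 2 WT and 5 KO call numbers were missing between the peaks that bound it. Neither of its 2 RefSeq starts had a peak. The highest WT −log10 q was at the shared site chr12:34041021-34041275 downstream (27.6), and the highest KO value at chr12:34075944-34076390 in the gene (16.4). The WT specific peak at chr12:34091920-34092152 had a fold of 5.73 and a −log10 q of 5.43, at percentile 8.44. Few peaks are common for genes of this length: 143 genes of similar length had a median of 2 WT peaks, and 31.5% had none.

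The RefSeq table holds 14 start windows for the 8 genes, each running from 250 bases before to 50 bases after a start. A WT peak touched 8 of them, beside 29.6% of all 32619 windows, and a KO peak touched 6, beside 27.0%. Both lists reached the same 6 windows, those of Mef2a, Mef2d, Hdac4, Hdac5 and the Hdac7 pair. The 2 windows with a WT peak and no KO peak were those of Mef2b and of the innermost Hdac7 start; among all windows with a WT peak, 11.6% had no KO peak. No window of the 8 genes had a KO peak alone, beside 3.1% of the windows with a KO peak. The remaining 6 windows, 3 of Mef2c, 2 of Hdac9 and the outermost of Hdac7, had neither.

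**Figure D3:**
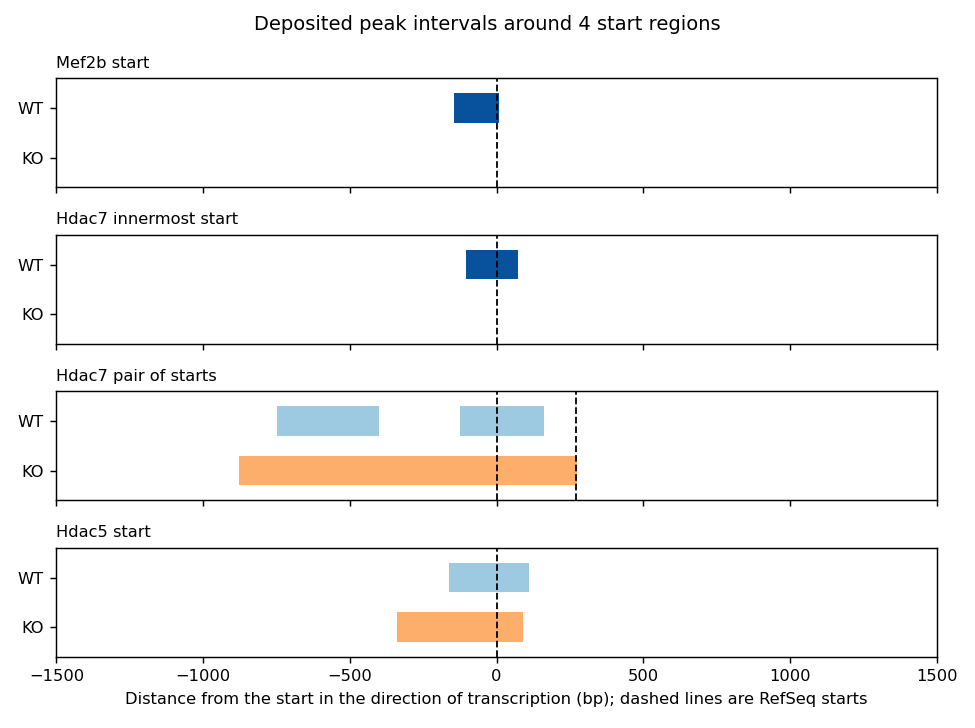
Deposited peak intervals of the WT list (upper rows) and the KO list (lower rows) within 1500 bp of 4 start regions (distance in bp in the direction of transcription), dark for specific and light for shared peaks. The Mef2b start and the innermost Hdac7 start carry WT intervals alone, the Hdac7 pair has 2 WT intervals within the span of 1 KO interval of 1150 bp, and the Hdac5 start is covered in both lists.

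The 250 bases before the start are shown for the 2 windows reached by WT peaks alone and, for comparison, for Hdac5, whose start was open in both lists. Sequences are from RefSeq (GRCm38.p6), written 5′ to 3′ on the strand of the gene, with the bases inside the deposited WT peak in capitals. They lie at chr8:70152511-70152760 (plus strand), chr15:97814864-97815113 (minus strand) and chr11:102230173-102230422 (minus strand).
Mef2b: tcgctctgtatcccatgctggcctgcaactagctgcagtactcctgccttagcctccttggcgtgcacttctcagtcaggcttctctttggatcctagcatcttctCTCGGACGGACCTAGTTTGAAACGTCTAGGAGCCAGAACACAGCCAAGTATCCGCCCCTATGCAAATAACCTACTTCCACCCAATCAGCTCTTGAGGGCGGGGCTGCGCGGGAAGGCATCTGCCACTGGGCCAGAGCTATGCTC
Hdac7, innermost start: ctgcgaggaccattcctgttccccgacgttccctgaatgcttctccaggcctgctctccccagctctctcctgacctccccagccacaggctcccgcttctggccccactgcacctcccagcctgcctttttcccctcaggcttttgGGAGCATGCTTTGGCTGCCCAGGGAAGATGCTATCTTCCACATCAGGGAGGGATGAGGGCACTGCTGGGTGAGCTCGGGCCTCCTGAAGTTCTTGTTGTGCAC
Hdac5: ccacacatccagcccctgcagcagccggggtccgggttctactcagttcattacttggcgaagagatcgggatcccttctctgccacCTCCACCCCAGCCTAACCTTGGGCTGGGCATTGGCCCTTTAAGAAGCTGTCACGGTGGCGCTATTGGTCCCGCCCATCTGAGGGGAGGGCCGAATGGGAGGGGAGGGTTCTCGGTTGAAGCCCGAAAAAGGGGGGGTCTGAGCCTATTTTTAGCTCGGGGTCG

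The Mef2b peak takes in the 144 bases next to the start. Letters chosen after reading these sequences were counted on both strands in every window. In the Mef2b peak a CCAAT box (CCAAT, in 37.6% of all windows and 40.7% of those with a WT peak) begins 64 bases before the start, GC boxes (GGGCGG, 35.9% and 68.5%) begin 93 and 49 bases before it, and an octamer (ATGCAAAT, 1.75% and 1.33%) begins 85 bases before it. The octamer is the site of POU factors and overlaps none of the other letters given here. The innermost Hdac7 window has neither a CCAAT nor a GC box, and 5 CpG, against a median of 23 in windows with a WT peak and 4 in those without. Mef2b has 11. These matches describe the letters and show no binding.

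A consensus MEF2 site, which 3.11% of all windows and 1.12% of those with a WT peak contain, was found at the starts of 2 of the 8 genes. In Hdac5 it reads CTATTTTTAG and begins 20 bases before the start; in Mef2a it reads CTAAAAATAG and begins 2 bases before it. Both lie inside the WT and the KO start peak. The RUNX core TGTGGT, present in 16.6% of windows, occurred in none of the 14. The E-box CAGCTG (16.4% of windows) occurred in both Hdac9 windows and in the innermost Hdac7 window, where an AP-1 site (TGANTCA, 7.85% of windows) also lies; these Hdac7 matches begin 10, 18 and 22 bases after the start. The first E-box and the second are distinct, while the AP-1 letters overlap the second. AP-1 letters were also in 1 window each of Mef2c and Hdac9.

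Where a site was shared, the summits of its peaks lay close together. In 34 pairs of 1 WT and 1 KO peak, the summits lay a median of 27.5 bp apart (range 0 to 525), beside 30 bp over 24065 such pairs of the whole lists. Summits were within 50 bp in 25 of the 34 pairs (73.5%, beside 69.1%). The largest distance, 525 bp, was at the weak site 3.59 kb into Mef2d, and the next, 470 bp, at Gm33690 beside Hdac7. The WT peak was the wider one in 17 pairs and the KO peak in 17. In the MEF2 genes the WT peak was wider in 9 of 12 pairs, and in the deacetylase genes in 8 of 22, beside 47.4% of all pairs. The median share of joint length was 77.4%, beside 78.3%.

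Specific peaks of the 8 genes were among the weaker peaks of their lists, though not all of them. The 9 WT specific peaks had a median fold of 5.73 and a median −log10 q of 8.11, and the 37 shared WT peaks 9.82 and 21.3. Over the whole WT list the medians were 6.50 and 8.38 for specific and 10.4 and 21.1 for shared peaks. The peaks at the Mef2b start, upstream of Mef2d and in Hdac4 at chr1:92061314-92061551 were at or above the median of the WT list; the other 6 were below it. Both KO specific peaks were below the median of the KO list. For 7 of the 9 WT specific peaks, the KO numbering skipped somewhere between the nearest KO peaks on either side. For the other 2 it did not. The 2 Hdac5 peaks lie in the same stretch. Measured from the peak centre, such stretches reach 4720 and 3687 bp at Mef2d, and 15645 and 898341 bp at Hdac9. A skipped number therefore need not lie at the site itself. How often this occurs among all WT specific peaks was not counted.

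**Figure D4:**
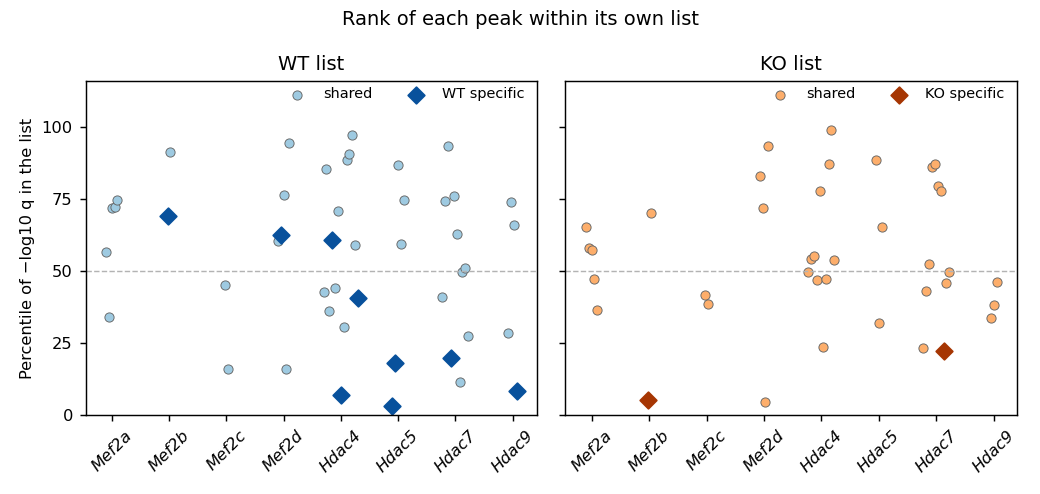
Percentile of each peak's −log10 q within its own list (vertical axis, WT left and KO right) for the 8 genes; circles are shared and diamonds specific peaks, and the dashed line is the list median. One WT specific peak each at Mef2b, Mef2d and Hdac4 stands above the median (percentiles 69.3, 62.6 and 60.9). The other WT specific peaks, among them those of Hdac4 at percentiles 6.95 and 40.8, and both KO specific peaks stand below it.

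The partners of these genes were read from 6 lists, each to be read beside the 27.3% of all WT peaks and 9.59% of all KO peaks that were specific. Of 15 kinases that act on class IIa deacetylases, 14 had a WT peak and 8 a WT specific one (16 of 62 WT peaks, 25.8%). All 15 had a KO peak and 3 a KO specific one (6 of 52 KO peaks, 11.5%). Both shares of peaks are near those of the whole lists. Of all protein-coding genes with a WT peak, 39.1% had a WT specific one. Of the genes with a KO peak, 12.3% had a KO specific one. Prkd1, which encodes protein kinase D1, had no WT peak and 3 KO peaks, all KO specific, with −log10 q of 4.15, 13.5 and 16.3. They share a stretch in which 7 WT call numbers were missing. At Mark2, another kinase of these deacetylases, 5 of 9 WT peaks were WT specific, and all 4 KO peaks were shared. Sik3 showed 3 WT specific sites and 2 of the KO kind. At Camk2a 2 of 4 WT peaks were specific. Camk1d showed 2 WT specific sites and 1 of the KO kind.

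The 7 genes of 14-3-3 proteins had 7 WT specific peaks among 19 (36.8%, beside 27.3% of all WT peaks) and no KO specific peak among 12 (beside 9.59% of all KO peaks). Ywhah had 2 WT peaks, both WT specific and both at its start, with −log10 q of 7.20 and 6.29, and Ywhaz had 2 WT specific peaks among 6. Among 10 corepressor and coactivator genes, the specific share was 8 of 34 (23.5%) for WT and 2 of 26 (7.69%) for KO, again near the whole-list shares. Cabin1, a MEF2 repressor, had 2 WT specific peaks among 6. The other zinc-dependent deacetylases had 3 WT specific peaks among 18 (16.7%) and 1 KO specific peak among 16 (6.25%). Of the former 2 were at Hdac11 and 1 at Hdac8, where the KO specific peak also lay. In the list of MAP kinases and calcineurin the specific share was 4 of 22 (18.2%) for WT and 1 of 19 (5.26%) for KO, both below the whole-list shares, with no gene at 2.

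Of 16 genes listed here as MEF2 targets, 14 had a WT peak and 12 a KO peak. Myog and Xirp2 had none. WT specific peaks made up 11 of 46 (23.9%, beside 27.3% of all WT peaks) and KO specific peaks 6 of 41 (14.6%, beside 9.59% of all KO peaks). Klf4, a zinc finger factor, had 2 WT peaks, both WT specific (−log10 q 11.99 and 9.31) and 1 of them at its start. Ppargc1a, the coactivator of mitochondrial genes, showed 5 WT specific sites among 9 and 3 of the KO kind among 7. Slc2a4, the insulin-responsive glucose transporter, and Myom1, a protein of the sarcomere M band, each had 1 specific peak in either list. Shares over these lists rest on few peaks and were not tested against the whole list.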

How the data were processed

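ATAC-seq peak lists of C2C12 cells in growth medium were used: the full WT and KO lists, the shared list and the 2 specific lists. Per the submitters' processing notes the build is mm10; aligner, peak caller and filters are not given in the sources used here. The authors deposited a fold ratio, a −log10 q and a summit for each peak; read counts were not used here, and depth is unknown. The last column of the specific lists, filled in some lines, is not explained.

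Deposited classes equalled an overlap of at least 1 bp. Peaks were assigned by their centre to RefSeq genes (GRCm38.p6) with 10 kb flanks. Just inside this limit were a WT and a KO peak 9.74 and 9.76 kb from Hdac7 (−log10 q 13.4 and 10.3); just outside was a WT specific peak 10.5 kb from Hdac5 (8.58). Start windows and sequences came from RefSeq, and exons were not analysed. Text and figures cover all 8 genes, each of their specific peaks, and, in the lists of partners, genes with at least 2 specific peaks; some genes of the lists are not reported here by name. Genes, lists and rules were chosen with earlier results of these data known, and the CCAAT, GC box, octamer and ETS letters (the last in none of the 14 windows) after the sequences were read. The planned protein stretch is not shown. Python 3.11.15, pandas 2.3.3, numpy 2.4.6, scipy 1.17.1 and matplotlib 3.10.9 were used; the overlap code was checked on simulated intervals against bedtools 2.31.1. Alternatives changed the flank, the peak position, the assignment, the threshold and the overlap.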

Additional observations from a re-analysis of the deposited data

How the results depend on the processing

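No paired analysis was possible because the deposited values come from 1 library of each genotype, and for the same reason no replicate could be left out. Of 34 alternative values of the 4 totals at the 8 genes, 24 stayed within 1.5 times the reported one. A flank of 50 kb gave 17 WT specific peaks among 65 (26.2%), close to the 27.3% of all WT peaks. With each list limited to its upper part by −log10 q (its median or more), there were 27 peaks in WT, 3 of them specific (11.1%, beside 6.17% of all such WT peaks), and 20 in KO, 0 of them specific (beside 1.45%). The WT share is then above that of the whole list, and without a threshold it is below it. With both lists limited to the WT median, 6 of 27 WT peaks (22.2%, beside 25.4%) and 6 of 27 KO peaks (22.2%, beside 14.8%) had no partner left. An overlap of 50% of the peak gave 4 KO specific peaks (10.3%, beside 14.9%). A reciprocal overlap of 50% gave 15 WT (32.6%, beside 35.0%) and 8 KO specific peaks (20.5%, beside 18.4%). Under the limit at the WT median, and also under reciprocal overlap, the KO share is above that of the whole list; as deposited it is below it. Each of these alternatives by its construction counts more, fewer or differently matched peaks. Gene body alone left 31 WT peaks, 6 of them specific (19.4%, beside 27.3% of all WT peaks), and 0 of these at a MEF2 gene. The Mef2b start peak is counted for Mef2b through the flank only. The WT specific peak upstream of Mef2d and that at the Mef2b start were at or above the WT median; the one at the innermost Hdac7 start was not. With a partner allowed within 500 bp, 7 WT specific peaks were left (15.2%, beside 26.4%), and 1 in place of 2 at Hdac5.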

Other observations

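The stretch without a retained peak that ends at the first site of Mef2c was 1820 kb long in the WT list and 710.8 kb in the KO list. Of the 9 WT specific peaks at the 8 genes, 2 carry the unlabelled mark, both at Hdac5, beside 993 of 9318 in the whole WT specific list. The octamer letters found at the Mef2b start also occur in the window of the inner Hdac9 start, which had no peak in either list.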
